A study of Oncorhynchus mykiss with 3 samples.

Results

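The miR-23, miR-24 and miR-27 families were examined in unfertilized eggs of rainbow trout. Members were all known miRNA names of the deposited table whose first number after miR- or mir- is 23, 24 or 27, on both arms and with all their sequences. This gave 32 names of 575 known names, or of 880 names when predicted miRNAs are counted too, with 52 unique sequences and 178627 reads. The groups are D1PO, D7PO and D14PO eggs, collected 1, 7 and 14 days post-ovulation from females of commercial stock held under the same conditions, and the labels give survival rates of 91.8%, 73.4% and below 50.0%. RNA from several females was pooled into 1 small RNA library per age, so no age has a replicate. The study sequenced the 3 ages to look for miRNAs related to egg quality. The deposited table has a single read count per sequence, with no library named beside it. The count was read as the total of the 3 libraries, an assumption that no source states, and it carries no value for a single age. The miRBase reads that the study gives for each library add up to less than the total of this column, so the assumption may not hold. The levels below therefore describe eggs of all ages together, and no difference between ages could be computed.

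A miRNA is cut from a hairpin precursor, whose arms give a 5p and a 3p product. It recognises its target mRNAs mainly through its seed, bases 2 to 8 counted from the 5′ end. In vertebrates the miR-23, miR-27 and miR-24 genes lie next to each other and are transcribed as clusters, and salmonids, whose ancestor doubled its genome, can carry several copies. The clusters are known from mammals for high levels in blood vessels, muscle and blood cells, where miR-23 and miR-27 act in vessel growth, miR-27 in fat cell formation and miR-24 in the cell cycle. The seed was taken from the most abundant 3p sequence of each number. The main 3p sequences are shown first because most reads of the families come from them, and capitals mark the seed.
omy-miR-23b-3p: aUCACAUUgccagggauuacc
omy-miR-23a-3p: aUCACAUUgccagggauuucca
omy-miR-24-3p: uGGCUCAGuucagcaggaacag
omy-miR-24b-3p: uGGCUCAGuucagcagaaaccg
omy-miR-27b-3p: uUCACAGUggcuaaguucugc
omy-miR-27a-3p: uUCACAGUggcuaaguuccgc
omy-miR-27d-3p: uUCACAGUgguuaaguucug

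The families were read mainly as 3p strands with these 3 seeds. Of the 178627 reads, 169596 or 94.9% were in 3p names (95% Clopper-Pearson interval 94.84 to 95.05), where 3p names held 60.1% of the reads of all known miRNAs. The seed of its own number was carried by 23 sequences of 10 names, with 168092 reads or 94.1% (94.0 to 94.2). All 23 were 3p sequences, and no sequence of the list carried the seed 1 base earlier or later. This was partly set in advance, since the seeds came from 3p sequences and the names from likeness to miRBase. The seeds of miR-23 and miR-27 have the same base at 6 of their 7 positions. The families together held 2.32% of the 7684127 reads of known miRNAs. Intervals here and below cover counting error only. They hold only if the deposited numbers are counts of reads and each read is counted for 1 sequence.
For comparison, the known miRNAs of the table held 4.03% of reads in the gonad miRNA miR-202 and 0.370% in miR-430, a family of the early embryo. Families known from other cells also had reads. The smooth muscle miRNAs miR-143 and miR-145 held 28.6%, the striated muscle miRNAs miR-1, miR-133 and miR-206 5.42%, the red blood cell miRNAs miR-451 and miR-144 2.22% and the endothelial miR-126 1.08%. The miR-221 and miR-222 cluster, also known from vessels, held 0.404%, with 86.0% of its reads in 3p names. The 3p share was 99.0% for miR-143 and miR-145 and 97.8% for miR-1, miR-133 and miR-206. It was lower for miR-430 with 83.9%, miR-126 with 74.3%, miR-451 and miR-144 with 0.0910% and miR-202 with 0.0659%. The 5p reads of miR-126 include nested omy-mir-126a-5p sequences of 16, 17 and 18 nt, with 5814, 5762 and 5759 reads. Whether the same reads are counted under each was not tested. If they are, the 3p share of miR-126 would be higher and its 1.08% lower. The part of other cells in the reads of miR-23, miR-24 and miR-27 was not tested, and more cells of a type cannot be told apart from more RNA per cell.

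miR-27 was the most abundant of the 3 numbers, with 82398 reads or 46.1% of the list (45.9 to 46.4), followed by miR-24 with 52509 reads or 29.4% and miR-23 with 43720 reads or 24.5%. Among 139 family numbers of known miRNAs they ranked 17, 26 and 29 by reads. The reads were concentrated in few names, and 4 names held 85.1% of the list.
omy-miR-27b-3p led with 59072 reads (95% Poisson interval 58597 to 59550) and ranked 22 among the 575 known names. omy-miR-24-3p followed with 50703 reads (50263 to 51146), omy-miR-23b-3p with 27335 and omy-miR-23a-3p with 14891. The counting intervals of these 4 names do not overlap. The remaining names with at least 1000 reads were omy-miR-27d-3p with 10031, omy-miR-27a-3p with 4722, omy-miR-27d-5p with 2845, omy-miR-27c-5p with 1916, omy-mir-23a-1-3p with 1317, omy-mir-27d-5p with 1303, omy-miR-24b-3p with 1179 and omy-miR-27b-5p with 1139. The interval of omy-miR-24b-3p overlaps those of omy-mir-23a-1-3p, omy-mir-27d-5p and omy-miR-27b-5p, and those of omy-mir-23a-1-3p and omy-mir-27d-5p overlap each other, so the order of these names is not settled by counting. The 20 other names had 14 to 417 reads. The median over the 52 sequences was 135.5 reads, against 136 over all known sequences.

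**Figure D1:**
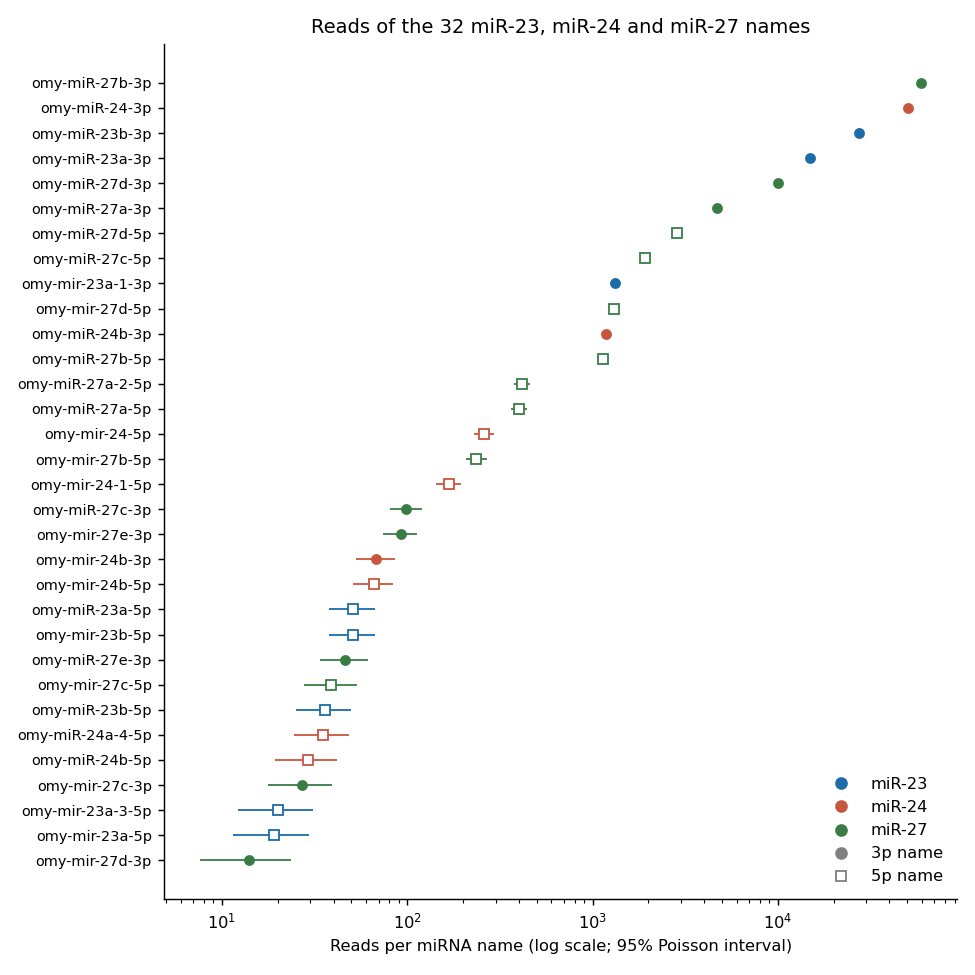
Reads of each of the 32 names on a log scale, with 95% Poisson intervals as bars where they exceed the point; filled circles are 3p names, open squares 5p names and colours the family number. The 4 leading names are all 3p, from 14891 to 59072 reads, and the highest 5p name is omy-miR-27d-5p with 2845.

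Of the 27 3p sequences, 23 were chosen here by their family seed, and within a number they differed at few of the remaining bases. The other 4 3p sequences lack the seed and had 1504 reads. Positions are counted from 1 at the 5′ end. The 5 miR-23 sequences with the seed were identical over their first 18 bases, and the 6 of miR-24 and the 12 of miR-27 each fell into 2 forms over these bases. The study's criteria for known miRNAs include fewer than 2 mismatches to miRBase over these 18 bases. This likeness is thus partly set by the naming. From omy-miR-23b-3p to omy-miR-23a-3p the change is A19U. From the main omy-miR-24-3p to the main omy-miR-24b-3p the changes are G17A and A21C. The least abundant sequence of omy-miR-24b-3p, with 146 reads, has A21C alone. It thus lies 1 base from the main omy-miR-24-3p and 1 base from the main omy-miR-24b-3p. A 21-nt sequence of omy-miR-24-3p with 191 reads also has A21C, and the 146-read sequence is this one with a G added.
For miR-27, the change from omy-miR-27b-3p to omy-miR-27a-3p is U19C. omy-miR-27d-3p held 6 sequences of different kinds. Its 20-nt sequence with 3280 reads and its 21-nt sequence with 3086 reads differ from omy-miR-27b-3p by C11U. Its sequence with 2345 reads has U19C and C21U, and its sequence with 1275 reads has U19A and C21U. C11U was thus carried by 6366 of the 10031 reads of the name. The last 2 sequences of omy-miR-27d-3p had 27 and 18 reads, and neither has a position in the trout genome.

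The share of reads in the main length differed between names. omy-miR-27b-3p was read almost as 1 sequence, its 21-nt form holding 99.98% of the reads with 59060, and the 23-nt form 12 reads. omy-miR-23a-3p had 92.6% of its reads in the 22-nt form (92.1 to 93.0), and its 24-nt form had 1108 reads. omy-miR-24-3p had 36961 reads or 72.9% in the 22-nt form (72.5 to 73.3), and omy-miR-23b-3p only 54.4% in its 21-nt form (53.8 to 55.0). omy-miR-24b-3p had a 22-nt form of 522 reads and the same sequence with 1 more base, of 511 reads. These 2 counts differ by less than counting error. Whether reads of a longer form are also counted under the shorter form it contains is not stated. The shares by length hold only if they are not.
The longer forms of omy-miR-23b-3p and omy-miR-24-3p are shown under their shorter forms, with capitals on the seed.
omy-miR-23b-3p, 21 nt, 14879 reads: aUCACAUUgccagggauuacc
omy-miR-23b-3p, 23 nt, 8596 reads: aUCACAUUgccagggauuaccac
omy-miR-23b-3p, 25 nt, 3860 reads: aUCACAUUgccagggauuaccacuu
omy-miR-24-3p, 22 nt, 36961 reads: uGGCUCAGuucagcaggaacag
omy-miR-24-3p, 24 nt, 13551 reads: uGGCUCAGuucagcaggaacaguu
Each longer form begins with the whole shorter one, so the added bases are all at the 3′ end. The 25-nt form of omy-miR-23b-3p and the 24-nt form of omy-miR-24-3p both end in an added UU and have no position in the trout genome, while the forms without the UU have one.
Among all known miRNAs, 8 sequences had this property, a UU added to a sequence of the same family number that has a position, and none of their own. They held 18372 reads, of which 17411 or 94.8% (94.4 to 95.1) were these 2 sequences. The 6 others had 10 to 496 reads. The UU was taken as the criterion because these 2 sequences carry it. Whatever bases were added, 50 known sequences extended a shorter one at the 3′ end without a position of their own. They held 46660 reads, of which 17510 were in 3 sequences of the list. Sequences without a genome position as a whole made up 19655 reads or 11.0% of the list (10.9 to 11.1) and 2.12% of the reads of all known miRNAs. By number of sequences the shares were 30.8% of 52 and 21.7% of 1059.
In all, 14 sequences of the list extended a shorter one of the same number at the 3′ end and held 17.6% of its reads (17.4 to 17.8), where the same count over all known miRNAs gave 22.99%. The 2 forms with UU made up 17411 of these 31444 reads. In each of the 16 pairs of a longer and a shorter form, the longer form had fewer reads. Whether its reads are also counted in the shorter form was not tested.

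**Figure D2:**
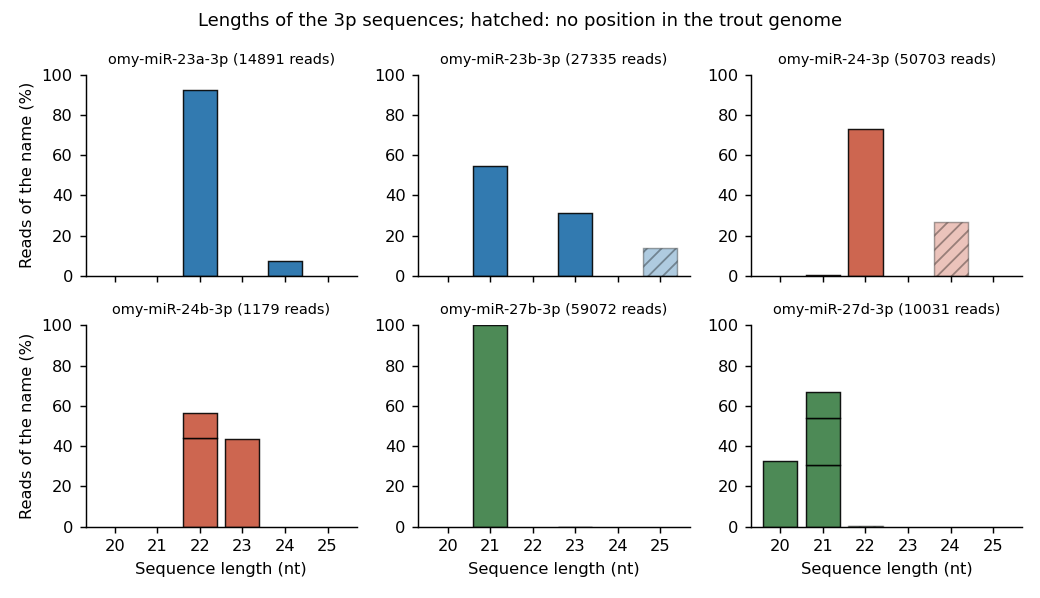
Share of the reads of a name (%) by sequence length (nt) for the 6 names of 3p strands with more than 1 sequence and the family seed; lines inside a bar separate different sequences of 1 length, and hatched bars have no position in the trout genome. The tall hatched bars are the 25-nt form of omy-miR-23b-3p with 3860 reads and the 24-nt form of omy-miR-24-3p with 13551, besides rare 22-nt forms of omy-miR-27d-3p, while omy-miR-27b-3p lies almost wholly at 21 nt.

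The hairpins of the families lay close to each other. Positions are those the authors gave in the trout genome, and no source used here names its build. The 36 sequences with a position fell into 12 groups when hairpins on 1 chromosome and strand with starts within 10 kb were joined, and 6 groups held at least 2 of the 3 numbers. These 6 groups held 19 names and 148796 reads, or 83.3% of the list. Read along the strand, all 6 kept the order miR-23, miR-27, miR-24 for the numbers present. The gaps between neighbouring hairpins of different numbers ran from 84 to 1718 bases. No other known or predicted miRNA of the deposited tables had a hairpin start within 10 kb of them.
All 3 numbers were present in 2 groups. The first lies on chrUn_6, minus strand, from 31651951 to 31654111 and held 75243 reads. It has omy-miR-23b-3p and omy-miR-23b-5p from 31654052 to 31654111, omy-miR-27b-3p and omy-miR-27b-5p from 31653736 to 31653815 and the main form of omy-mir-24-1-5p, with 129 of its 168 reads, from 31651951 to 31652017. The second lies on chrUn_8, minus strand, from 8992334 to 8993706 and held 614 reads, with 51 of omy-miR-23a-5p, 417 of omy-miR-27a-2-5p and the rest of the least abundant omy-miR-24b-3p sequence.
In the other 4 groups 1 number had no sequence. The 22-nt form of omy-miR-24-3p was placed on chr_5, minus strand, from 2215179 to 2215271, with a miR-27 hairpin from 2216201 to 2216300, and this group held 40703 reads. The main omy-miR-23a-3p was placed on chrUn_1, plus strand, from 38914550 to 38914636, with miR-27 sequences up to 38915946 and 13927 reads in all. The 24-nt omy-miR-23a-3p lay on chrUn, minus strand, from 224625936 to 224626018, next to omy-miR-27c-5p, omy-miR-27d-5p and omy-miR-27d-3p, with 12125 reads. omy-miR-27a-3p lay on chrUn_28, plus strand, from 8508144 to 8508207, with omy-miR-24b-3p up to 8508966 and 6184 reads.
The table gives each sequence 1 position. Of 12 pairs in which a sequence extends another and both have a position, 7 carry different chromosome labels. The 21-nt omy-miR-23b-3p, for example, is placed on chrUn_6 and its 23-nt form on chrUn_5 from 4564049 to 4564117. A position need not be an exact match. The omy-miR-27d-3p sequences with 2345 and 1275 reads differ by C19A, yet both are placed on chr_5 from 2216201 to 2216300. Whether the letters of a shorter form are present at both places of a pair was not tested. The reads of a group hold for the position the authors chose.

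**Figure D3:**
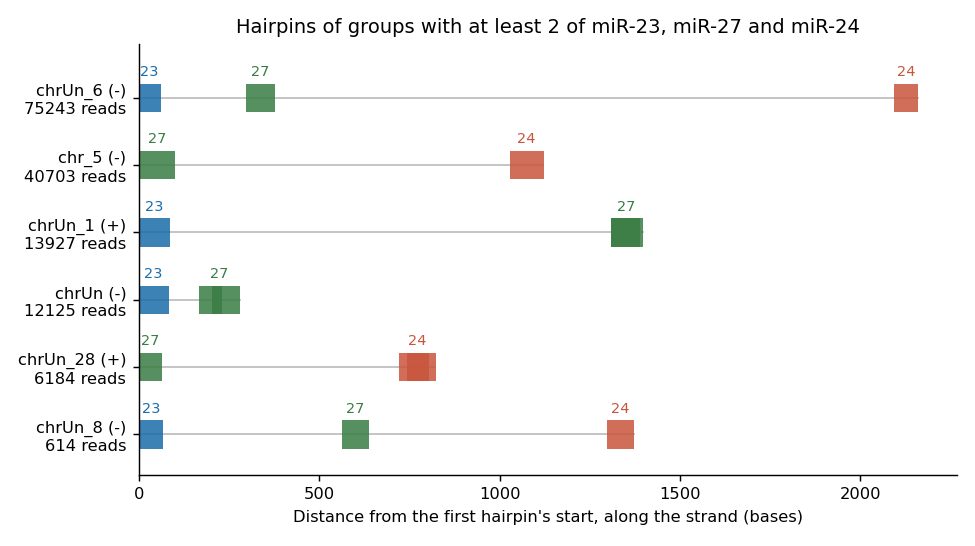
Hairpins of the 6 groups with at least 2 family numbers, drawn to scale as distance in bases from the start of the first hairpin along the strand; colours and numbers give the family, overlapping boxes are separate hairpin positions, and labels give chromosome, strand and reads. Each group runs in the order 23, 27, 24, and the groups span 281 to 2161 bases.

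Use of the arms differed between the numbers and, within miR-27, between hairpins. The 5p names held 10.1% of the reads of miR-27 (9.86 to 10.3), 1.06% of miR-24 (0.979 to 1.16) and 0.405% of miR-23 (0.347 to 0.469). miR-27 thus made up 8295 of the 9031 5p reads of the list, or 91.9%. These counts go by name. The 8295 include 1184 reads of an 18-nt omy-mir-27d-5p sequence, which shares only 5 bases in a row with the positioned miR-27 sequences spelled miR. The 5p reads of each number also include 2 sequences spelled mir without a position, such as omy-mir-24-5p with 261 of the 559 of miR-24. Positions that overlap on 1 strand were counted as 1 hairpin, which gave 20 hairpins, of which 9 had reads of both arms, 5 of the 3p arm alone and 6 of the 5p arm alone. Each sequence has 1 position, so a strand shared by several copies counts at only 1 hairpin. Its other hairpins can then appear to lack that arm.
At 6 of the 9 hairpins the 3p share was above 90%, with the arm taken from the name. Among the 6 is the hairpin of the 24-nt omy-miR-23a-3p, where omy-mir-23a-3-5p had 20 reads. These sequences formed only 3 pairs, as given below, so they are not shown to be opposite arms. omy-miR-23b-3p had 14879 reads against 36 of omy-miR-23b-5p, a 3p share of 99.8% (99.7 to 99.8). omy-miR-27b-3p had 59060 against 1139 of omy-miR-27b-5p, or 98.1% (98.0 to 98.2), and omy-miR-27a-3p 4722 against 400 of omy-miR-27a-5p, or 92.2% (91.4 to 92.9). The 417 reads of omy-miR-27a-2-5p on chrUn_8, where no 3p sequence of miR-27 is placed, are not in this last share. The miR-27 hairpin on chrUn stood between, with 6366 reads of omy-miR-27d-3p against 4631 of omy-miR-27c-5p and omy-miR-27d-5p, or 57.9% (57.0 to 58.8). Its intervals do not overlap with those of the hairpins of omy-miR-27b-3p and omy-miR-27a-3p. The positions of this hairpin in the table are 2 windows that overlap by 27 bases, from 224625738 to 224625816 and from 224625790 to 224625851, with 3p shares of 63.3% and 53.6%. Each window has a 3p and a 5p sequence, and the 27 shared bases are too few to hold both. As placed, they are thus not 1 hairpin, and the 57.9% joins the 2 windows.
At the remaining 2 hairpins the 5p arm had more reads, with 12 reads of the 23-nt omy-miR-27b-3p against 119 of omy-mir-27d-5p on chrUn, and 14 reads of omy-mir-27d-3p against 130 of omy-miR-27c-5p on chrUn_1. At both, the shorter 3p form is placed at another hairpin. When all sequences that begin with the main omy-miR-27b-3p or contain omy-miR-27b-5p were counted together, whatever their position, the 3p share was 97.9% (97.8 to 98.0). The same count for omy-mir-27d-3p and its 21-nt form against the 16-nt omy-miR-27c-5p and its 17-nt form gave 83.6% (81.7 to 85.5). The 17-nt form is omy-mir-27b-5p, with 122 reads placed on chr_5. The 2345-read sequence of omy-miR-27d-3p at that chr_5 hairpin was not counted, so this share is not that of a hairpin. For omy-miR-27d-3p with omy-miR-27c-5p and omy-miR-27d-5p the same count again gave 57.9%. All forms counted there lie in the 2 windows already joined, so this is not a separate check.

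**Figure D4:**
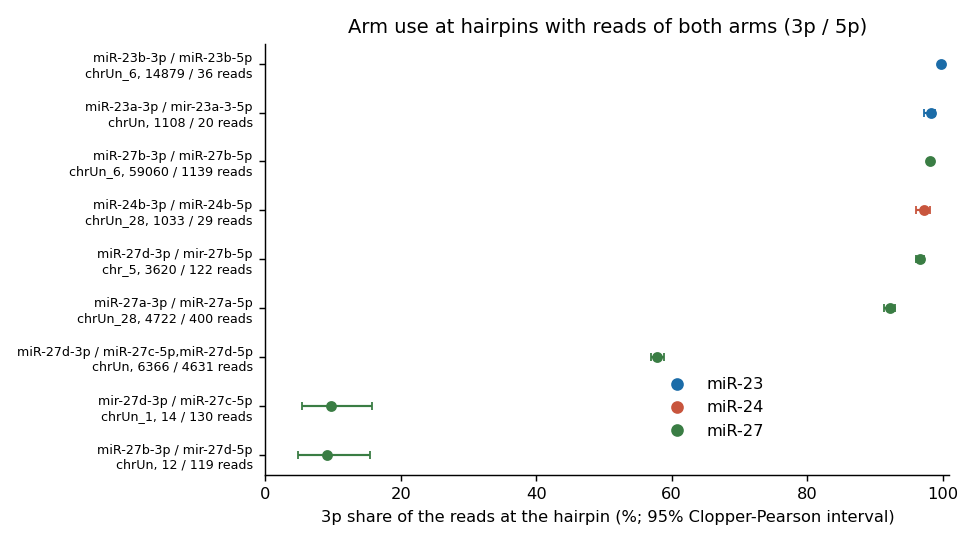
3p share of the reads (%) at the 9 hairpins with reads of both arms, the arm taken from the name, with 95% Clopper-Pearson intervals; labels give the 3p and 5p names, the chromosome and the reads of each arm. The share lies at 92.2% or above for 6 hairpins and below 10% for the 2 hairpins on chrUn and chrUn_1 with few reads. It is 57.9% for the joined windows of omy-miR-27d-3p with omy-miR-27c-5p and omy-miR-27d-5p.

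The 5p strands of the miR-27 copies did not all share the same seed, although some copies did. The most abundant ones are shown with bases 2 to 8 in capitals.
omy-miR-27d-5p, 2845 reads: aGGACUUAgcacacaugugaaca
omy-miR-27c-5p, 1786 of 1916 reads: cAGGACUUagcacacaugugaaca
omy-miR-27b-5p, 1139 reads: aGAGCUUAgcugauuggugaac
omy-miR-27a-2-5p, 340 of 417 reads: cAGGACUUagcucgcuuuguga
omy-miR-27a-5p, 180 of 400 reads: aGGACUUAgccagcuuugug
omy-miR-27c-5p contains the whole of omy-miR-27d-5p and starts 1 base earlier. The seeds of the names differ by this shift, and the later start held 61.4% of their 4631 reads (60.0 to 62.8). This share holds only if the reads of omy-miR-27c-5p are not also counted under omy-miR-27d-5p, which is not stated. If they are, the later start would not hold the larger part. These 2 sequences are placed in the 2 overlapping windows given above, whose shared bases are too few for both arms. Whether they are copies of the hairpin or starts of 1 strand was not tested. omy-miR-27a-2-5p was also read from 2 starts, with 340 reads beginning 2 bases later than the other 77. omy-miR-27a-5p has the seed of omy-miR-27d-5p, and the main sequence of omy-miR-27a-2-5p that of omy-miR-27c-5p. The list held 18 different seeds in its 25 5p sequences and 7 in its 27 3p sequences.
The arms of a hairpin were also compared by base pairing with RNAduplex, which finds the most stable duplex of 2 strands and its energy. The main strands of omy-miR-27b-3p and omy-miR-27b-5p formed 19 pairs at -20.7 kcal/mol, those of omy-miR-27d-3p and omy-miR-27d-5p 19 pairs at -22.4, those of omy-miR-23b-3p and omy-miR-23b-5p 17 pairs at -20.1 and those of omy-miR-27a-3p and omy-miR-27a-5p 16 pairs at -20.0. Fewer pairs were formed by omy-mir-27b-5p with the 2345-read sequence of omy-miR-27d-3p on chr_5, 12 at -12.5 kcal/mol, by omy-miR-24b-3p with omy-miR-24b-5p, 11 at -15.4, and by omy-mir-27d-3p with omy-miR-27c-5p on chrUn_1, 11 at -12.1. The 5p strands on chr_5 and chrUn_1 are only 17 and 16 nt long. A shorter strand can form fewer pairs, and the values were not adjusted for length. The 23-nt omy-miR-27b-3p and omy-mir-27d-5p on chrUn formed 19 pairs at -20.7 kcal/mol. omy-mir-23a-3-5p, a 21-nt sequence with 20 reads at the hairpin of the 24-nt omy-miR-23a-3p, formed 3 pairs with it at -3.2 kcal/mol.

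The names spelled mir held few reads and mostly different sequences. In the table, omy-mir-27d-3p and omy-miR-27d-3p, for example, are separate entries. There were 14 names with mir and 18 with miR, and they held 2.06% and 97.9% of the reads of the list, with a median per name of 67 and 1159 reads. Of the 17 sequences under mir, 10 had no genome position, and these 10 were the only sequences of the list with neither a position nor the family seed. They were 15 to 17 nt long, had 19 to 1317 reads and 2054 in all, and shared at most 7 bases in a row with any positioned sequence of their number that is spelled miR.
omy-mir-23a-1-3p, 1317 reads: cAGGACUGaaucaua
omy-mir-27d-5p, 1184 of 1303 reads: gCGGGUGCagaucuuggu
omy-mir-24-5p, 261 reads: uCCUGUGCcuguugugc
These sequences are shown as abundant ones that share only short unbroken runs with the positioned names spelled miR, again with bases 2 to 8 in capitals. Runs interrupted by a mismatch were not searched throughout. By its letters, however, omy-mir-24-5p ends in a stretch that matches the start of omy-miR-24a-4-5p apart from a mismatch. omy-mir-23a-1-3p is named as a miR-23 3p strand and shares 4 bases in a row with the positioned miR-23 sequences spelled miR. By its letters it shares a longer run with omy-mir-23a-3-5p, which has a position but is spelled mir and named 5p. The 18-nt sequence of omy-mir-27d-5p has a position, on chrUn, plus strand, from 553449300 to 553449351, where no other member lies, and shares 5 bases in a row with the positioned miR-27 sequences spelled miR. The other sequence of omy-mir-27d-5p, with 119 reads, is omy-miR-27b-5p with AU added at its 3′ end, so this name covers 2 different sequences. omy-mir-27b-5p likewise holds a 15-nt sequence with no position and 114 reads and a 17-nt sequence with 122 reads, which is the 16-nt omy-miR-27c-5p with a G added. In the same way, omy-miR-27c-3p with 99 reads is omy-miR-27b-3p with UAU added. The least abundant omy-miR-24b-3p sequence is the 21-nt omy-miR-24-3p sequence with a G added. Reads of such nested names are not independent.
The 10 names not yet given with their reads were rare. Of miR-27 they were omy-mir-27e-3p with 92 reads, omy-miR-27e-3p with 46, omy-mir-27c-5p with 39 and omy-mir-27c-3p with 27. Of miR-24 they were omy-mir-24b-3p with 68, omy-mir-24b-5p with 66, omy-miR-24a-4-5p with 35 and omy-miR-24b-5p with 29, and of miR-23 omy-mir-23b-5p with 51 and omy-mir-23a-5p with 19.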

How the data were processed

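Small RNA was sequenced by the authors on an Illumina GAIIx, with 1 library per age from pooled RNA. After filtering on quality, copy number, adapters, mRNA, Rfam and Repbase, they identified known miRNAs with miRBase and predicted others from genomic hairpins. The deposited values are headed as numbers of reads per unique sequence and were taken here as counts. They were at least 10 in the known and 20 in the predicted table, with no column per library. Totals were 7684127 and 333447 reads.

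Counts were summed by name. Shares carry Clopper-Pearson and reads Poisson intervals at 95%, which were tested on simulated data. No test between ages was possible, and no p-value is given. Names with at least 1000 reads, or in a hairpin group with 2 or more family numbers, were described with values. The members and lists were chosen with earlier results of these data known. Alternatives were sequences of 20 to 24 nt, with a position or with at least 50 reads, other seed windows and other hairpin distances. Python 3.11.15, pandas 2.3.3, numpy 2.4.6, SciPy 1.17.1, matplotlib 3.10.9 and ViennaRNA 2.7.2 were used.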

Additional observations from a re-analysis of the deposited data

How the results depend on the processing

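Of 23 alternatives, 10 left a share within its counting interval or a count within 1.5 times, and the intervals are narrow. With sequences of 20 to 24 nt only, 3p names and family seeds each held 96.0% of the list, miR-27 47.1% and 3′ extended sequences 16.05%. With positions only, the list held 2.11% of known reads, 3p names and family seeds 94.7%, miR-27 51.5% and extended sequences 8.77%, since the forms with UU drop out. With at least 50 reads, 3p names held 95.1% and family seeds 94.2%. Against both tables the list held 2.23%. Extensions of exactly 1 base held 2.22%. At 1 kb, 4 hairpin groups remained in the count. For the other moves the cause was not tested. No paired analysis was possible because the counts are not split by age and no age was replicated.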

Other observations

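Outside the families, 1366 sequences of known and predicted miRNAs were searched for the 3 seeds. None carried one at bases 2 to 8, and 17 carried the letters of a seed elsewhere, 10 those of miR-27, 7 those of miR-24 and 0 those of miR-23. omy-miR-128-3p, of a family known from the nervous system and muscle, had 3930 reads and begins with the miR-27 letters at base 1, 1 base earlier than in miR-27.
omy-miR-128-3p, 3439 of 3930 reads: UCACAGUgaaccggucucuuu
omy-miR-27b-3p: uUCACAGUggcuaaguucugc
The miR-24 letters occurred in 6 sequences of the 3p strand of miR-146a, with 2380 reads, starting between bases 7 and 9.
omy-miR-146a-3p, 766 reads: aucuaugGGCUCAGuucuucug
A shared run of letters is a description and was not tested for shared targets.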
